A study of Mus musculus with 6 samples.

Results

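Prostaglandin synthesis, transport and breakdown was followed through 10 genes: the carriers Slco2a1 and Abcc4, the cyclooxygenases Ptgs1 and Ptgs2, the prostaglandin E synthases Ptges, Ptges2 and Ptges3, the breakdown enzymes Hpgd and Ptgr1, and the receptor Ptger4. They were picked for their function out of 16593 genes that the arrays name, at a time when the differences of this contrast were known, so their values are given as a description without a test. Of the 10 genes, 8 had a probe on the array, 10 probes in all. No probe was paired with Ptgs1 or Abcc4, and these are not analysed here.

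All RNA came from GIF-14 cells, an epithelial line established from the fetal stomach of mice that lack both Runx3 and p53 (Runx3-/-;p53-/-), taken before epithelial-mesenchymal transition (EMT). Total RNA was profiled on mouse Illumina BeadChips from untreated cells and from cells kept for 24 h in recombinant TGF-β1 (2.5 ng/ml), with 3 arrays in each group. Every array therefore carries both deletions, no Runx3-competent cells stand beside them, and all arrays come from 1 cell line. The comparison asks which transcripts move within a day of TGF-β1 in cells that can undergo EMT. According to the study, the epithelial subpopulation had been separated from the line before treatment. Since RNA came from whole cultures of these separated cells, fewer cells of a type and less RNA per cell cannot be told apart.

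Prostaglandins are made from arachidonic acid, which phospholipases free from membranes and cyclooxygenases turn into prostaglandin H2, the shared precursor. Terminal synthases make prostaglandin E2 and its relatives, carriers move them out of and into cells, and dehydrogenases and reductases inside cells inactivate them. In the stomach prostaglandin E2 is known for sustaining mucus and bicarbonate secretion and mucosal repair, and it acts through receptors that include the cAMP-coupled Ptger4.

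Slco2a1, the prostaglandin transporter that takes prostaglandins up into cells ahead of their breakdown, had the widest difference of the genes in the pathway that were measured above background. Its quantile-normalized log2 signals were 11.62, 11.46 and 11.74 without treatment and 8.04, 8.01 and 7.84 after TGF-β1. All 3 treated arrays lay far below all 3 untreated arrays, and the groups did not overlap. The means were 11.61 ± 0.14 and 7.96 ± 0.10 (SD, n = 3 each), a difference of -3.64 ± 0.10 (SE), or 12.5-fold lower with TGF-β1. Before normalization the signal intensities were 3487, 3102 and 3149 untreated against 222, 234 and 256 treated, and the probe was detected on all 6 arrays. Among the 7725 genes tested, this was the 5th largest decrease.

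**Figure D1:**
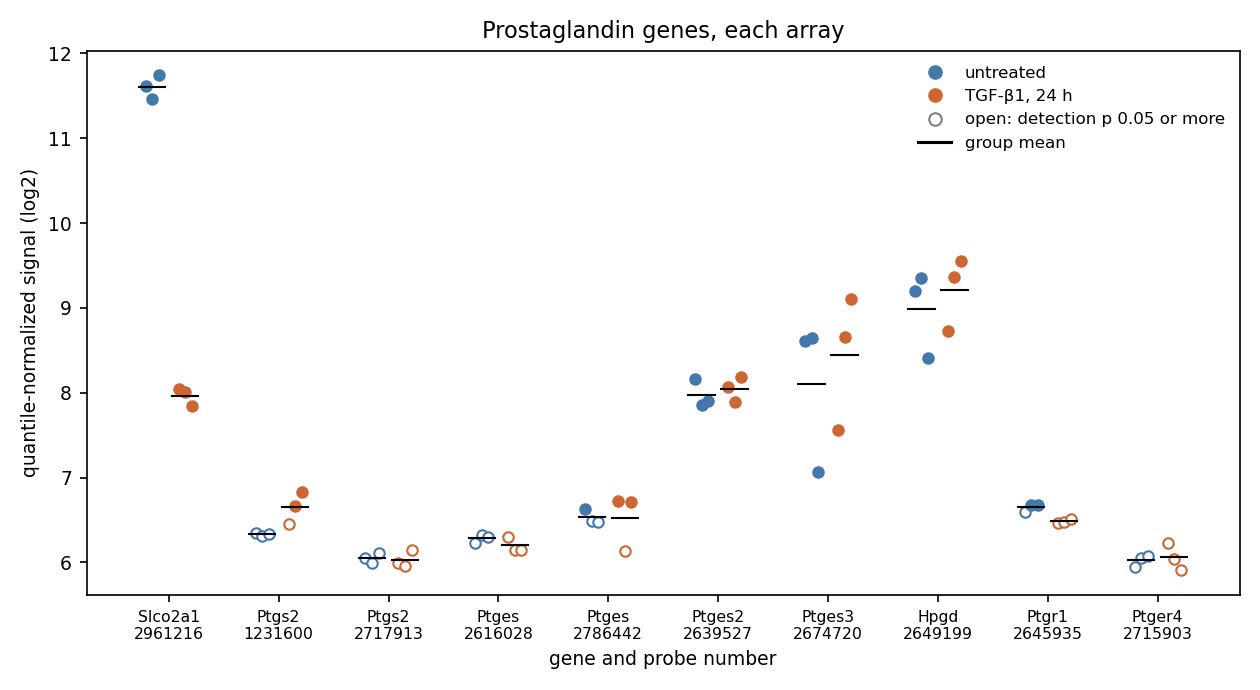
Quantile-normalized log2 signal of each prostaglandin probe (vertical axis) on the 3 untreated and 3 TGF-β1 arrays, 1 point per array (blue untreated, orange TGF-β1, open where not detected) with the group mean as a line. Slco2a1 drops from about 11.61 to 7.96, while the groups of Ptges2, Ptges3 and Hpgd overlap.

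The 250 bases upstream of the annotated start are shown for the genes with a probe whose window holds the hexamer CACCTG or its reverse complement CAGGTG. Snail and Zeb repressors are known to bind these letters, but binding was not tested here. Sequences are from RefSeq on GRCm38.p6, plus strand, 5′ to 3′, at chr9:103008237-103008486 for Slco2a1, chr8:56294302-56294551 for Hpgd and chr1:150099781-150100030 for Ptgs2, with the hexamer and, in Slco2a1, a TATAAA motif in capitals.
Slco2a1: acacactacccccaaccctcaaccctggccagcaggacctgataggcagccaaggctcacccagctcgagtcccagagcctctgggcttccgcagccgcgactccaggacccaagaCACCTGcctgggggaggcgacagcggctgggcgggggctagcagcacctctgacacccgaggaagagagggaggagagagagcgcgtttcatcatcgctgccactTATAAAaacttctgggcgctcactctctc
Hpgd: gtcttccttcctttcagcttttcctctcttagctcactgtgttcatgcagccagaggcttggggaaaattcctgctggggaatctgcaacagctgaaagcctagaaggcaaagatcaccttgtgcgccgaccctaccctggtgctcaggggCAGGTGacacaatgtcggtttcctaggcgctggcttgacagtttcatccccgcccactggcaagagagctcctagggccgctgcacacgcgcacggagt
Ptgs2: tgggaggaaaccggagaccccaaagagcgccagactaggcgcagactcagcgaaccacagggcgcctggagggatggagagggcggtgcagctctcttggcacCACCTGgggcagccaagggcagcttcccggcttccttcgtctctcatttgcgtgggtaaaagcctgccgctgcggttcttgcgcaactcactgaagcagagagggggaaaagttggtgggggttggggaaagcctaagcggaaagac
The hexamer begins 134 bases before the start in Slco2a1, 99 in Hpgd and 147 in Ptgs2, and TATAAA begins 29 bases before it in Slco2a1. All 10 genes matched a promoter entry, and 4 of them held the hexamer in at least 1 window (the other was Abcc4), against 17.2% of all 32851 windows of this length. TATAAA was found on either strand in 1 of the 10 genes, against 12.4% of all windows. Both comparisons set genes against single windows, and a gene with more than 1 window, such as Abcc4, has more chances to match. The motif and the windows were chosen after the sequences had been read. Of the genes that share the hexamer, Abcc4 had no probe and Ptgs2 did not enter the test. A match is a description of letters only, and its part in any difference was not tested.

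Ptgs2, the inducible cyclooxygenase, was near background. On its brighter probe (ILMN_1231600) the log2 signals were 6.34, 6.31 and 6.33 untreated and 6.45, 6.67 and 6.84 with TGF-β1. All treated arrays were above all untreated ones, by a mean of 0.32, but the probe was detected on 0 of 3 untreated and 2 of 3 treated arrays. With each untreated array set to the higher of the probe's own signal and the lowest detected signal, the treated mean was 1.02-fold higher. Such a value is a bound only where every array of the higher group detects the probe, and TGF-β1 array 1 did not. The other Ptgs2 probe (ILMN_2717913) was detected on no array, between 5.99 and 6.11 untreated and between 5.95 and 6.14 treated, and its groups overlapped. The probes thus did not show the same pattern.

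Of the prostaglandin E synthases, Ptges, the inducible microsomal enzyme, was likewise at the edge of detection. Its brighter probe (ILMN_2786442) gave 6.63, 6.49 and 6.48 untreated and 6.73, 6.13 and 6.71 treated, detected on 1 and 2 arrays. The groups overlapped, and the second treated array was the lowest of the 6. The other Ptges probe (ILMN_2616028) was detected on no array and differed by -0.09.

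Ptges2, a membrane-associated synthase, was detected on every array at 8.16, 7.86 and 7.91 untreated and 8.07, 7.89 and 8.18 treated. The groups overlapped, with a difference of 0.07 ± 0.11 (SE). Ptges3, the cytosolic synthase also known as the Hsp90 co-chaperone p23, gave 8.61, 8.64 and 7.07 untreated and 7.56, 8.66 and 9.10 treated. The third untreated and the first treated array were low, the groups overlapped, and the difference of 0.34 had an SE of 0.48.

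Hpgd, the dehydrogenase that carries out the first step of prostaglandin inactivation, followed the same arrays. Its log2 signals were 9.20, 9.35 and 8.41 untreated and 8.73, 9.36 and 9.55 treated. The third untreated and the first treated array were again the lowest of their groups, the groups overlapped, and the difference was 0.23 ± 0.28 (SE). Ptgr1, the reductase that acts on the product of Hpgd, lay at 6.60, 6.67 and 6.67 untreated and 6.47, 6.48 and 6.51 treated. Its groups did not overlap, but it was detected on 2 untreated and 0 treated arrays and differed by only -0.16, so no fold is given.

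Ptger4, a prostaglandin E2 receptor that raises cAMP, was detected on no array. Its log2 signals were 5.95, 6.06 and 6.08 untreated and 6.23, 6.04 and 5.91 treated, and the groups overlapped.

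Ptges3 and Hpgd varied more within groups than most genes. The within-group SD was 0.847 for Ptges3, at the 99.7th percentile of the 7725 genes tested, and 0.470 for Hpgd, at the 97.5th. Slco2a1, at 0.124, was close to the median gene (0.122), and Ptges2 was at 0.155. The arrays on which Ptges3 and Hpgd were low also had the lowest mean signal of their groups, 435 against 519 and 518 for untreated cells and 406 against 439 and 519 for TGF-β1. Across the 7725 genes, the deviations of these 2 arrays from their group means correlated with r = 0.78, a description only, since genes are no independent replicates. The part of this shared deviation in the Ptges3 and Hpgd values was not tested. Without the third untreated array the Ptges3 difference was -0.18 and that of Hpgd -0.06, and without the first treated array they were 0.77 and 0.47. With the mean array signal as a covariate they were 0.87 and 0.52.

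**Figure D2:**
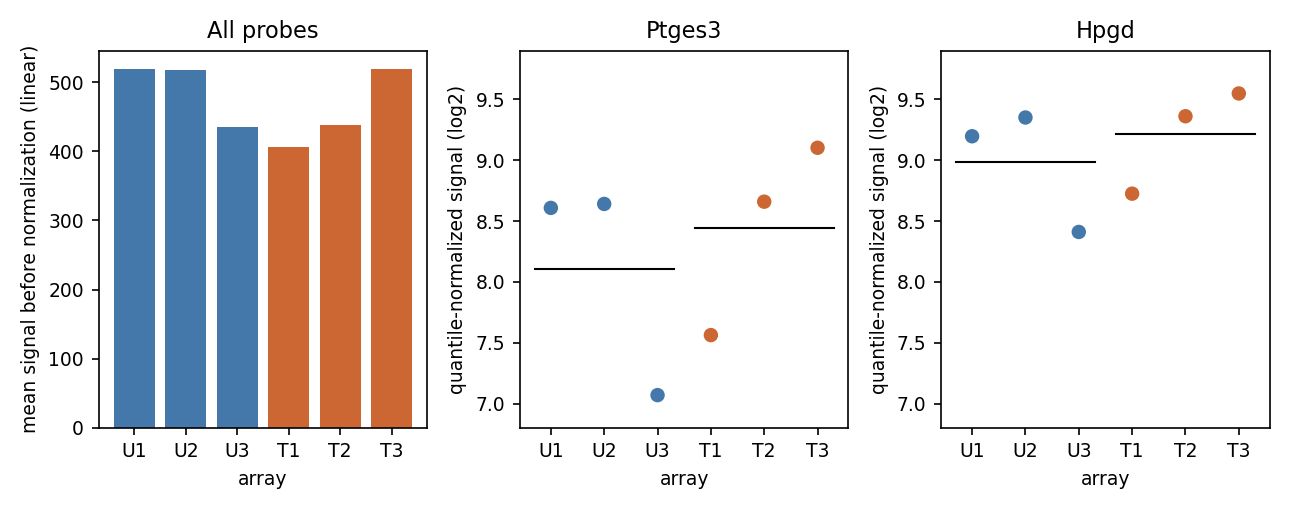
Mean signal of all probes before normalization on each array (left, linear bars from 0) and the quantile-normalized log2 signals of Ptges3 and Hpgd (middle and right), with untreated arrays in blue (U), TGF-β1 arrays in orange (T) and group means as lines. Ptges3 and Hpgd are lowest on untreated array 3 and TGF-β1 array 1, whose mean signals of 435 and 406 are the lowest of their groups.

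In the fit across all genes by limma, 35.7% of the 7725 genes tested passed an adjusted p of 0.05, 17.3% higher and 18.4% lower with TGF-β1. Testing was limited to probes detected (detection p under 0.05) throughout either group of 3 arrays. Only 4 of the 10 prostaglandin genes entered this fit (Slco2a1, Ptges2, Ptges3 and Hpgd), and 1 of them, Slco2a1, was called, lower. Since the contrast was known when the genes were chosen, nothing is read from that count. The tested genes of the pathway had a median difference of 0.15 and ranged from -3.64 to 0.34, beside a median of 0.03 over all genes tested. Of the 10 probes, 4 were detected on all arrays, 3 on some and 3 on none, and 3 had groups that did not overlap, against 26.4% of all probes. These were the Slco2a1 probe, which was tested (48.2% of tested genes had groups apart), and untested probes of Ptgs2 and Ptgr1 (11.4% of untested probes).

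Genes around the pathway were taken from 7 lists chosen by function, 67 symbols with 56 on the array. Of these, 20 were tested, 3 rose, 4 fell and 13 did not pass, or 7 of 20 called beside the 35.7% over all genes. A further 26 were detected on no array. Among the genes that did not pass, Pla2g4b and Hpgds entered the test only through the untreated group, where they are higher.

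Among the phospholipases that free arachidonic acid, 1 of 3 tested genes rose. Pla2g12a, a secreted phospholipase, gave log2 signals of 8.76, 8.91 and 9.14 untreated and 10.36, 10.35 and 10.16 with TGF-β1. The groups were well apart, with a difference of 1.35 ± 0.12 (SE, limma adjusted p = 4.19e-05). The other Pla2g12a probe (ILMN_2588391) was detected on no array and differed by 0.12, with groups that overlapped. Pla2g6 (-0.27, adjusted p = 0.068) and Pla2g4b (-0.11) did not pass. Pla2g4b was detected on 3 untreated arrays and 1 treated array, close to the detection limit. It entered the test only through the untreated group, where it is higher, so no p-value is given for it.

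Among other carriers and breakdown enzymes, 1 of 3 tested genes rose. Slco3a1, an organic anion carrier of the same family as Slco2a1 that also transports prostaglandins, gave 7.08, 7.27 and 7.46 untreated and 8.66, 8.64 and 8.47 treated. No treated array came near an untreated one, and the difference was 1.32 ± 0.11 (SE, limma adjusted p = 4.56e-05), opposite in sign to that of Slco2a1. A second Slco3a1 probe differed by 0.76 and the last, not tested, by -0.18. Zadh2 (0.03) and Ptgr2 (-0.03), reductases of prostaglandin breakdown, did not pass (adjusted p = 0.86 each).

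Among synthases of other prostanoids, 1 of 4 tested genes fell. Cbr1, a carbonyl reductase that can convert prostaglandin E2 to F2α, gave 9.45, 9.43 and 9.40 untreated and 8.71, 8.42 and 8.99 treated. The groups did not overlap, and the difference was -0.72 ± 0.14 (SE, limma adjusted p = 0.00407). Ptgds, the lipocalin-type prostaglandin D synthase (-0.12, adjusted p = 0.292), and Tbxas1, thromboxane synthase (0.04, adjusted p = 0.793), did not pass. Hpgds, also among the 4, was detected on 3 untreated and 0 treated arrays. It entered the test only through the untreated group, where it is higher, and no p-value is given for it.

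Other prostanoid receptors did not reach the test at all, as 0 of 7 on the array were tested and 5 were detected on no array. The list for the lipoxygenase and leukotriene branch had 1 tested gene of 14, with 10 detected on no array. That gene, Ephx2, the soluble epoxide hydrolase, fell by 0.73 on the log2 scale (SE 0.16, limma adjusted p = 0.00764). Ephx2 is neither a lipoxygenase nor a leukotriene enzyme, so no gene of the branch itself was tested.

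Of the genes that cAMP is known to induce, 1 of 4 tested rose, beside 35.7% of all genes called in either direction. Neither cAMP nor receptor activity was measured, and a link to receptors such as Ptger4 was not tested. Pde4d, a phosphodiesterase that degrades cAMP, differed by 0.44 ± 0.10 (SE, limma adjusted p = 0.00951). Its other probe (ILMN_1215021) was detected on no array and differed by 0.19, with groups that overlapped. Per1, a clock gene (-0.10, adjusted p = 0.407), and the nuclear receptor Nr4a2 (0.16, adjusted p = 0.151) did not pass.

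Among regulators of Ptgs2, 2 of 5 tested genes fell. Zfp36, an RNA-binding protein that destabilizes Ptgs2 mRNA, differed by -0.44 ± 0.12 (SE, limma adjusted p = 0.0204), and the transcription factor Cebpb by -0.32 ± 0.08 (SE, adjusted p = 0.0178). Both calls were lost in several alternatives. Egr1 (0.33, adjusted p = 0.205) and Rela (0.08, adjusted p = 0.611) did not pass.

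The genes whose pattern over the 6 arrays was most like that of Slco2a1, by the root mean square difference of log2 values taken relative to each gene's untreated mean, were Cyp2c65 (0.158), Ugt1a10 (0.180), Depp1 (0.245), Rasl11a (0.248) and Gsta4 (0.272). Their own log2 differences were -3.86, -3.45, -3.36, -3.99 and -3.28. With decreases this wide the measure mostly follows the size of the decrease, so the list is a description of the same contrast. Cyp2c65, Ugt1a10 and Gsta4 belong to families of close relatives, and their probes may read more than 1 of them.

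The epithelial label was checked on its markers, and 5 of 5 epithelial genes with a probe were detected on all arrays. Krt19 fell by 1.59 on the log2 scale and Krt18 rose by 0.47 (limma adjusted p = 3.41e-06 and 0.0116), while Cdh1 (-0.02), Krt8 (-0.08) and Cldn7 (-0.03) did not pass. Of the immune, mast cell and tuft cell markers, 0 were tested, and 4 of 5, 5 of 5 and 4 of 6 genes were detected on no array. Fibroblast markers had 1 tested gene of 6, Col1a1, detected on 0 untreated and 3 treated arrays and at least 2.13-fold higher with TGF-β1. The other 5 fibroblast genes were detected on no array, and their probes differed by -0.11 to 0.11. Endothelial markers likewise had 1 tested gene of 6, Pecam1, detected on 3 untreated and 0 treated arrays and at least 1.08-fold lower. Its other probe (ILMN_3147074) was detected on no array and differed by 0.06. Col1a1 and Pecam1 each entered the test only through the group where they are higher, so no p-value is given for them. The summed signal of the fibroblast list, in which Col1a1 alone was detected, was 588 to 641 untreated and 712 to 755 treated, and that of the epithelial list 38305 to 41820 and 30524 to 36511. The part of these markers in the prostaglandin values was not tested.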

How the data were processed

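Total RNA of 6 cultures was hybridised to Illumina MouseRef-8 BeadChips and processed by the authors in GenomeStudio. The authors deposited non-normalized signal intensities per probe, without background subtraction, and with them detection p-values that set every probe against negative controls. The authors' quantile-normalized intensities, on a linear scale, served as an alternative. Here the non-normalized intensities were quantile-normalized and log2-transformed in limma 3.58.1 (R 4.3.3). Of 25697 probes, 23978 carried 1 gene symbol in the platform annotation and 1719 none. Testing required detection (p under 0.05) throughout either group of 3 arrays, which left 11189 probes, and each of 7725 genes was represented by its brightest one. Depth was 11381 to 11797 detected probes per array (44.3% to 45.9%), and 3 arrays a group limit the precision.

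Groups were compared by lmFit and eBayes with Benjamini-Hochberg adjustment over all genes tested. The study calls the arrays biological triplicates. An exact permutation test of 3 against 3 cannot go below p = 0.1. On simulated data for this comparison with 7725 genes, limma recovered 89 of 100 genes given a 2-fold change and 59 of 100 given 1.5-fold, with 2 false calls. The simulated noise was independent between genes and few genes were changed, unlike the shared deviations and the 35.7% called here. These rates may thus differ on the real arrays. The members and lists were chosen with earlier results of these data known. Named genes are all members with every probe, and from each list up to 4 that passed, by size of change, and up to 2 that did not, by brightness, plus the 5 genes most like Slco2a1. Alternatives were neqc, mean scaling, the authors' values, other detection filters and probe rules, a replicate block, an intensity trend, leaving out each array, SAM, a 1.5-fold requirement and 3 added after seeing the data. SAM, the test the methods name, was written here, since samr was not used. Its first version averaged over permutations and called 0 genes. The median, the default of samr, was adopted after that was seen, and both are given in the closing section.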

Additional observations from a re-analysis of the deposited data

Results flagged for a closer look

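The brighter Ptgs2 probe (ILMN_1231600) lay 0.32 higher in log2 signal with TGF-β1 and was detected on 2 treated and 0 untreated arrays, so that it showed a signal outside the genes tested. A probe of Alox5ap (ILMN_2863837), which encodes the protein that presents arachidonic acid to 5-lipoxygenase, lay 0.35 higher in the same way, detected on 2 treated and 0 untreated arrays. With the untreated arrays raised to the lowest detected signal it was 1.11-fold higher, no strict bound, since TGF-β1 array 3 did not detect it. Neither probe passed the detection filter, so neither difference is reported with a test. Without that filter Alox5ap was called and Ptgs2 was not. Both probes had been picked by their detection in the treated group alone, so nothing is read from these outcomes. Alox5ap was also called without TGF-β1 replicate 3, where it entered only because the undetected treated array had been dropped. The rule that picked them was set after the Ptgs2 values had been seen. Of the probes not tested, 11.4% had groups that did not overlap.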

How the results depend on the processing

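The Slco2a1 difference, given as a description, lay between -4.03 (neqc) and -3.58. SAM with the mean over permutations, the first version written, called 0 of all genes, 0 prostaglandin genes and 0 of the other lists, where limma had 3482 genes at an unadjusted p under 0.05. The mean counts the observed split and its mirror image among the 20 splits. SAM with the median, adopted after that result was seen, called 1954, 1 and 6. The choice between these versions decides whether SAM calls anything. The values as reported are 2755, 1 and 7.

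The replicate numbers did not pair the arrays (correlations of deviations -0.66, 0.07 and -0.78). With the replicate block 1733 genes were called, and 5 of the other lists, without Zfp36 (adjusted p = 0.0689) and Cebpb (adjusted p = 0.0884). A 1.5-fold requirement left 1130 genes and 4 of the other lists. Leaving out each array in turn gave 2057 to 2900 genes, 1 to 2 prostaglandin genes and 5 to 8 of the other lists. The second prostaglandin gene was Ptgs2, without TGF-β1 replicate 1. It entered the test only through the treated group, where it is higher, once the treated array that did not detect it was dropped, so nothing is read from that call. Zfp36 was lost without untreated replicate 1 or TGF-β1 replicate 2 or 3, Cebpb without TGF-β1 replicate 2 or 3 and by SAM (q = 0.0923). Pla2g6 passed without untreated replicate 3. After the Ptges3 and Hpgd pattern had been seen, 2 alternatives were added. With mean array signal as a covariate 3 prostaglandin genes were called (Slco2a1, Ptges3, Hpgd), and Egr1 passed (adjusted p = 0.00947). Without both low arrays 2 were called (Slco2a1 and, by the same route, Ptgs2), and Pla2g6 of the other lists passed here too. Over all genes the count reached up to 3782 among the 20 alternatives, beside 2755 as reported, so nothing is read from these member counts. The cause of the Ptges3 and Hpgd pattern was not tested. No named difference that passed reversed its sign. The brighter Ptgs2 probe went from 0.32 to 0.61 with neqc and 0.15 as the mean of both probes, and Ptgr1 from -0.16 to -0.35 with neqc and -0.09 with mean scaling. Mean scaling also turned the dim probes of Ptges (-0.09 to 0.01) and Ptgs2 (-0.02 to 0.09). Signal near background limits Ptgs2, Ptges, Ptgr1 and Ptger4.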

Other observations

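Crem, a transcriptional regulator that cAMP induces, had a pair of tested probes, and it is named here after its values were seen. The brighter probe, which stood for the gene, differed by 0.19 (limma adjusted p = 0.121). The other (ILMN_2964986) differed by 0.40, with log2 signals of 6.61, 6.76 and 6.63 untreated and 7.07, 7.15 and 6.97 with TGF-β1. It was detected on 2 untreated and 3 treated arrays and entered the test only through the treated group, where it is higher. No p-value is therefore given for it. Its groups did not overlap, and both probes lay close to the detection limit.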
